A study of Glycine soja with 14 samples.

Results

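Phosphate and iron acquisition genes of wild soybean (Glycine soja) roots were followed over 24 h of NaHCO3 stress. They were taken as the soybean probe sets of the Affymetrix Soybean Genome array whose gene symbol starts with PAP and a digit, PHT, IRT, FRO, NRAMP, ZIP and a digit or FER. Probe sets that the study's own gene tables describe as purple acid phosphatase, phosphate transporter, ferritin, ferric or iron transport were added. The rule found 17 of 37594 soybean probe sets, 10 by symbol (7 genes) and 7 by description only. Of the soybean probe sets, 8677 (23.1%) carried 1 gene symbol, so the families are covered in part.

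The 14 arrays were hybridised with root RNA of line G07256, 2 at 0 h and 2 after each of 6 times of stress (0.5 and 1 h, 3 and 6 h, 12 and 24 h). Seedlings 21 days old had grown in diluted Hoagland's solution and were moved to the same solution with 50 mmol/L NaHCO3 at pH 8.5, while the 0 h plants received no NaHCO3. Each array holds the last 3 cm of the roots of 3 pooled plants, the 2 arrays of a time point are biological replicates, and the array was designed for cultivated soybean (Glycine max). No unstressed roots were hybridised at the later hours, so hours of stress and hour of the day cannot be told apart, and the age and day length in the methods differ from those in the labels.

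The array medians ran from 13.7 to 17.4 intensity units. The hybridisation controls averaged 9.26 and 9.09 (log2) on 0.5 h replicate 1 and 12 h replicate 2, against 9.92 to 10.51 on the other 12 arrays. Of 32 probe sets of root markers 28 passed the filter on low values, among them PIN2A, an auxin efflux carrier of the root tip, and NRT2, a nitrate transporter. The others carried CHS, IFS or PIP2 symbols. The filter also passed 28567 of all 37594 soybean probe sets and 13 of 16 of leaf and chloroplast markers. The count of root markers therefore does not tell the tissue. Of 28567 soybean probe sets tested, the median log2 change from 0 h lay between -0.14 (3 h) and -0.01 (1 h). With each array centred on its median it became 0.03 at 3 h and moved from -0.13 to 0.09 at 24 h. The share of higher probe sets among those called changed with it from 29.4% to 60.6% at 3 h, from 41.8% to 55.4% at 6 h, from 32.7% to 51.4% at 12 h, from 23.7% to 57.4% at 24 h and from 40.9% to 52.8% at 0.5 h.

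Phosphate is poorly soluble in alkaline soil and much of the soil's phosphorus is bound in organic matter. Purple acid phosphatases are metal-containing enzymes, many of them secreted, that release phosphate from organic compounds, and PHT1 proteins are the plasma membrane transporters that carry phosphate into root cells. Iron is also scarce at high pH. Dicot roots reduce it with a ferric reductase of the FRO family and import it with the transporter IRT1, members of the NRAMP family carry iron across membranes inside and outside the cell, and ferritins store it, in plants mostly in plastids.

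The probe sets found cover the phosphate side far better than the iron side. Purple acid phosphatases made up 11 of the 17 probe sets and phosphate transporters 2. No probe set had a symbol starting with IRT, FRO, NRAMP or FER, and none was described by iron transport. The iron side was left with 1 ferritin and 2 probe sets described by a ferric reductase-like domain together with calcium-binding EF-hands. That combination is known from plant NADPH oxidases, which make superoxide, and GmaAffx.71361.1.S1_at was also described as respiratory burst oxidase homolog B. ZIP43 was found by its symbol, and no source used here describes it as a metal transporter.

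Of the members 15 passed the filter on low values. The exceptions were 2 of the 3 probe sets of PAP25, whose mean log2 levels of 3.17 and 3.44 lay below the background level of 3.91. The 7 members found by description came from tables of genes selected as changed on these same arrays, and 1 of those tables was held only in part. Their values are therefore given without a test. The 8 tested members found by symbol were compared with 0 h by limma, and a probe set was called at an unadjusted p under 0.05 and an adjusted p under 0.15. All comparisons with 0 h share the same 2 control arrays.

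Few of the symbol-named genes were called, and their intervals were often too wide to show that a level stayed the same. With only 8 probe sets, nothing particular to the members is read from the counts that follow. At 0.5 h, 0 of 8 were called higher and 0 lower, where 2.26% and 3.27% of all probe sets tested were, and 1 had an unadjusted p under 0.05. At 1 h the counts were again 0 and 0, against 0.179% and 0.375% of all, with 1 unadjusted p under 0.05. At 3 h 1 was lower and 0 higher, against 12.0% lower and 5.0% higher among all probe sets.

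At 6 h the limma counts were 0 and 0, against 8.67% higher and 12.1% lower, with 1 unadjusted p under 0.05. Both 6 h arrays lay above both 0 h arrays for 5 of the 8 and below them for 0, where this held for 27.4% and 35.2% of all probe sets. At 12 h 1 was higher and 0 lower, against 7.95% and 16.4%. At 24 h 0 were higher and 1 lower, against 6.07% and 19.6%. The 3 calls in 48 comparisons fell on PAP02 and PAP3. The median log2 change of the 8 probe sets was, in order of time, 0.03, -0.07, -0.05, 0.30, 0.32 and 0.06, where that of all probe sets was -0.02, -0.01, -0.14, -0.05, -0.04 and -0.13.

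**Figure D1:**
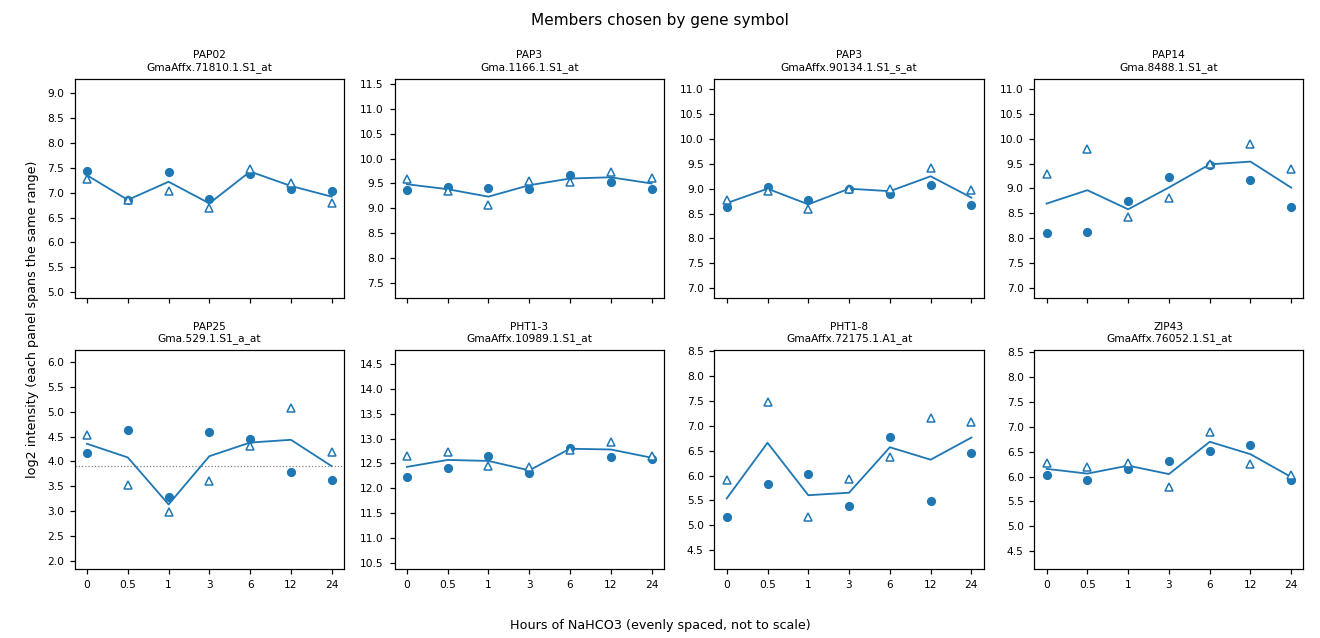
log2 intensity of the 8 tested probe sets found by symbol, on each array by hours of NaHCO3 (replicate 1 filled circles, replicate 2 open triangles, line through the means, dotted line the background of 3.91). PAP02 dips at 3 h to 6.88 and 6.69, and the replicates of PAP14, PAP25 and PHT1-8 lie far apart at several times.

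Among the purple acid phosphatases PAP02 fell modestly. Its log2 levels (GmaAffx.71810.1.S1_at) were 7.43 and 7.27 at 0 h, 6.86 and 6.85 at 0.5 h, 7.41 and 7.03 at 1 h, 6.88 and 6.69 at 3 h, 7.37 and 7.48 at 6 h, 7.07 and 7.20 at 12 h, then 7.04 and 6.80 at 24 h. Both arrays lay below both 0 h arrays at 0.5, 3, 12 and 24 h, and at 6 h the arrays overlapped those of 0 h. PAP02 fell by 0.57 on the log2 scale at 3 h (SE 0.17, 1.48-fold, limma adjusted p = 0.0884). At 24 h it fell by 0.43 (SE 0.17, limma adjusted p = 0.131), while the change of -0.49 at 0.5 h was not called (limma adjusted p = 0.194).

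From 3 to 6 h PAP02 rose by 0.64 (SE 0.17, limma adjusted p = 0.0657), a call lost without 3 h replicate 2 or either 6 h array (0.211 to 0.328). This was 1 of 2 members higher in that step, where 8.05% of all probe sets were higher and 4.56% lower. The 3 h fall lost its call when any 1 of the 4 arrays compared was left out (limma adjusted p = 0.294 and 0.21 without 0 h replicate 1 and 2, and 0.177 and 0.344 without 3 h replicate 1 and 2). The 24 h fall lost it without 0 h replicate 1 or 2 (0.417 and 0.213), 24 h replicate 2 (0.446), either 3 h array (0.156) or either 6 h array (0.177). With each array centred on its median neither was called, at -0.40 and -0.21.

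PAP3 was measured by 2 probe sets, which differ in their calls. On GmaAffx.90134.1.S1_s_at, a design that may also take up close copies, the log2 levels were 8.64 and 8.78 at 0 h, 9.04 and 8.96 at 0.5 h, 8.78 and 8.59 at 1 h, 9.00 and 9.00 at 3 h, 8.90 and 9.00 at 6 h, 9.08 and 9.42 at 12 h, then 8.67 and 8.97 at 24 h. On Gma.1166.1.S1_at, the acid phosphatase probe set with the highest mean, they were 9.37 and 9.60 at 0 h, 9.43 and 9.34 at 0.5 h, 9.40 and 9.07 at 1 h, 9.38 and 9.55 at 3 h, 9.67 and 9.53 at 6 h, 9.52 and 9.73 at 12 h, then 9.39 and 9.61 at 24 h. The first was highest at 12 h on both arrays, and the second overlapped its 0 h levels at every time.

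The first PAP3 probe set rose by 0.54 at 12 h (SE 0.17, 1.45-fold, limma adjusted p = 0.0672) and fell by 0.43 from 12 to 24 h (SE 0.17, limma adjusted p = 0.112), where it was 1 of 8 members called lower and 19.8% of all probe sets were lower. The second changed by 0.14 at 12 h (SE 0.18, 95% interval -0.25 to 0.53, limma adjusted p = 0.645). The rise at 12 h lost its call without 0 h replicate 1 (limma adjusted p = 0.264) and without 12 h replicate 2 (0.265), an array with low hybridisation controls. The fall from 12 to 24 h lost it without that array, 24 h replicate 1 or either 6 h array (0.152 to 0.396).

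The replicates of the other purple acid phosphatases found by symbol lay far apart at some times. PAP14 (Gma.8488.1.S1_at) ranged from 8.10 to 9.90 (log2), and its 0 h arrays alone read 8.10 and 9.29. Its change at 12 h was 0.84 with a 95% interval of -0.35 to 2.04 (SE 0.54, limma adjusted p = 0.342). PAP25 (Gma.529.1.S1_a_at) stayed near background, from 2.99 to 5.08, and both 1 h arrays lay below both 0 h arrays. The change there was -1.22 with a 95% interval of -2.29 to -0.15 (SE 0.48), which was not called over all probe sets (limma adjusted p = 0.501).

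Neither phosphate transporter was called at any time. PHT1-3 (GmaAffx.10989.1.S1_at) read 12.22 and 12.64 at 0 h, 12.41 and 12.73 at 0.5 h, 12.65 and 12.45 at 1 h, 12.30 and 12.42 at 3 h, 12.82 and 12.77 at 6 h, 12.63 and 12.93 at 12 h, then 12.59 and 12.64 at 24 h (log2). PHT1-8 (GmaAffx.72175.1.A1_at) read 5.16 and 5.92 at 0 h, 5.84 and 7.48 at 0.5 h, 6.04 and 5.17 at 1 h, 5.38 and 5.93 at 3 h, 6.77 and 6.37 at 6 h, 5.49 and 7.15 at 12 h, then 6.46 and 7.07 at 24 h. PHT1-3 lay above both 0 h arrays on both arrays of 6 h only. PHT1-8 lay above its 0 h levels on both arrays of 6 and 24 h, and its replicates were far apart at 0.5 and 12 h.

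Against 0 h the largest change of PHT1-3 was 0.37 at 6 h (SE 0.19, 95% interval -0.05 to 0.79, limma adjusted p = 0.264), and from 3 to 6 h it changed by 0.44 (95% interval 0.01 to 0.86, limma adjusted p = 0.233). With arrays centred on their medians the change at 6 h from 0 h was 0.46 and called (limma adjusted p = 0.131). No other alternative gave a call there, with changes from 0.16 to 0.58. PHT1-8 changed by 1.23 at 24 h (SE 0.62, 95% interval -0.16 to 2.61, limma adjusted p = 0.228) and by 1.03 at 6 h (limma adjusted p = 0.343). The 24 h value became a call without either 12 h array (limma adjusted p = 0.148), in a fit of the 4 arrays alone (0.0972) and with centring (0.139). The interval at 24 h reaches past a 4-fold rise of PHT1-8 and also includes no change.

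ZIP43 (GmaAffx.76052.1.S1_at) was highest at 6 h. Its log2 levels were 6.03 and 6.28 at 0 h, 5.93 and 6.19 at 0.5 h, 6.16 and 6.28 at 1 h, 6.31 and 5.79 at 3 h, 6.51 and 6.89 at 6 h, 6.64 and 6.26 at 12 h, then 5.94 and 6.04 at 24 h. Only the 6 h arrays both lay above both 0 h arrays. ZIP43 rose by 0.65 from 3 to 6 h (SE 0.22, limma adjusted p = 0.135), whereas its change from 0 h to 6 h, 0.55 (SE 0.22), missed the limit (limma adjusted p = 0.159). The rise from 3 h lost its call without 3 h replicate 2 or any 1 array of 0, 1, 6 or 24 h (0.157 to 0.57). Leaving out either 3 h array (0.141) or either 12 h array (0.136) turned the change from 0 h into a call, as did centring (0.1) and quantile normalisation (0.102).

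The members found by description were drawn from tables of changed genes, and the level of 6 of the 7 differed more than 2-fold from 0 h at some time. The purple acid phosphatases among them took different courses. The probe set described as PAP9 (GmaAffx.53575.1.S1_at) read 6.35 and 6.65 at 0 h, 7.07 and 7.92 at 0.5 h, 7.22 and 7.34 at 1 h, 7.54 and 7.62 at 3 h, 7.29 and 7.27 at 6 h, 7.11 and 7.27 at 12 h, then 6.76 and 6.91 at 24 h (log2). All 12 stressed arrays lay above both 0 h arrays. The log2 change was 0.99 at 0.5 h (SE 0.24), 1.08 at 3 h (2.11-fold) and 0.33 at 24 h.

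A purple acid phosphatase probe set without a symbol, Gma.8117.1.A1_at, read 4.77 and 4.95 at 0 h, 5.04 and 5.96 at 0.5 h, 5.63 and 4.43 at 1 h, 3.50 and 4.06 at 3 h, 5.41 and 5.21 at 6 h, 4.40 and 5.24 at 12 h, then 7.35 and 7.05 at 24 h. It was near background at 3 h and stood apart from all other times at 24 h. The change from 0 h was -1.08 at 3 h and 2.34 at 24 h (SE 0.43 each), the latter 5.07-fold.

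The probe set of LOC100782338 (Gma.4063.1.S1_at), described as purple acid phosphatase-like, read 6.36 and 6.47 at 0 h, 6.11 and 6.31 at 0.5 h, 6.18 and 6.16 at 1 h, 5.68 and 5.06 at 3 h, 5.82 and 5.85 at 6 h, 6.75 and 6.92 at 12 h, then 7.06 and 6.64 at 24 h. GmaAffx.81724.1.S1_at, described in the same words, read 5.14 and 5.36 at 0 h, 5.55 and 5.50 at 0.5 h, 5.23 and 5.40 at 1 h, 5.09 and 4.63 at 3 h, 5.05 and 4.94 at 6 h, 6.03 and 6.00 at 12 h, then 5.62 and 5.29 at 24 h. Both lay below their 0 h levels on both arrays of 3 and 6 h and above them at 12 h. The change of LOC100782338 was -1.05 at 3 h (SE 0.22) and 0.42 at 12 h, and that of the other was -0.39 (SE 0.19) and 0.77. Without 3 h replicate 1 the 3 h change of LOC100782338 was -1.36, and without replicate 2 it was -0.74.

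**Figure D2:**
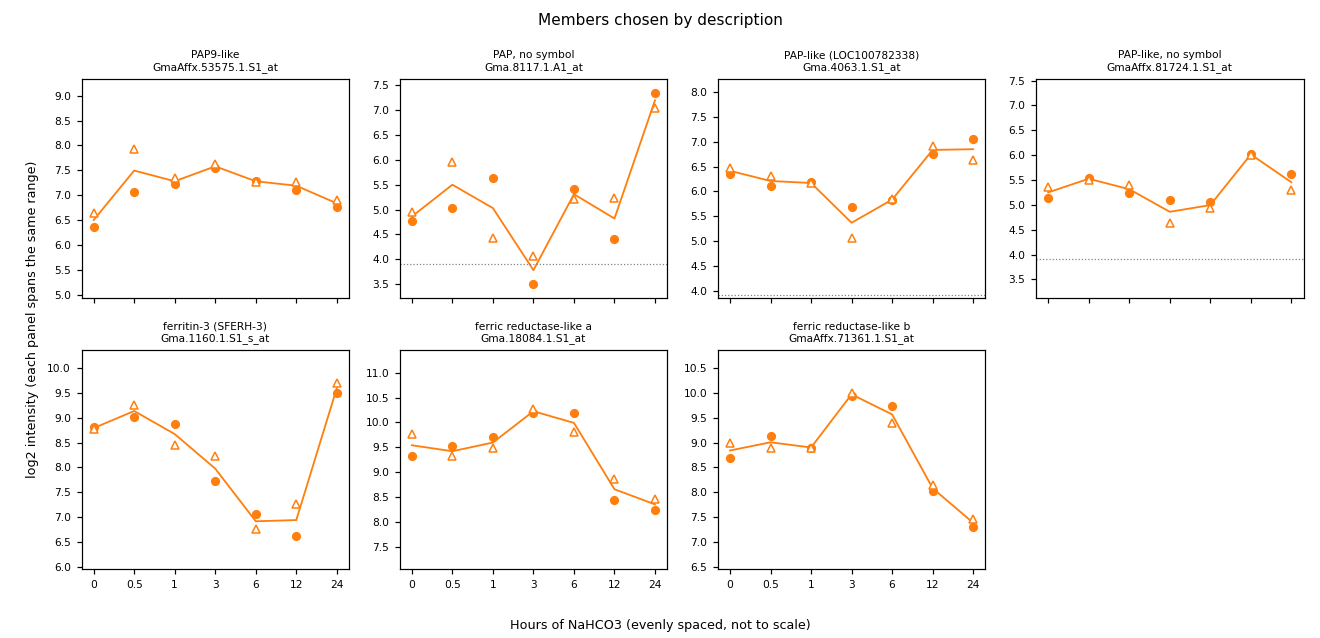
log2 intensity of the 7 probe sets found by description, on each array by hours of NaHCO3 (replicate 1 filled circles, replicate 2 open triangles, line through the means, dotted line the background of 3.91). Ferritin-3 has its lowest levels at 6 and 12 h and is highest at 24 h, and the 2 probe sets with a ferric reductase-like domain peak at 3 h and are lowest at 24 h.

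Ferritin-3, the plastid iron store encoded by SFERH-3, had the widest swing of the iron-related members. Its probe set Gma.1160.1.S1_s_at read 8.81 and 8.77 at 0 h, 9.01 and 9.26 at 0.5 h, 8.88 and 8.46 at 1 h, 7.73 and 8.22 at 3 h, 7.07 and 6.76 at 6 h, 6.62 and 7.26 at 12 h, then 9.50 and 9.69 at 24 h (log2). The arrays of 3, 6 and 12 h lay below the 0 h arrays and those of 24 h above them. The log2 change from 0 h was -0.81 at 3 h, -1.88 at 6 h (3.68-fold), -1.85 at 12 h and 0.80 at 24 h (SE 0.26 each). Without 12 h replicate 2, the array with low hybridisation controls, the 12 h change was -2.17, and without replicate 1 it was -1.53. From 12 to 24 h ferritin-3 differed by 2.65 (6.29-fold).

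A second probe set of SFERH-3, Gma.1160.1.S1_at, was not chosen by the rule. It carries the same symbol and was read on the same arrays, so it is no independent check. It read 7.20 and 7.41 at 0 h, 5.89 and 5.49 at 6 h, 5.11 and 6.13 at 12 h, then 8.22 and 8.45 at 24 h. Its changes of -1.61, -1.68 and 1.03 (SE 0.41 each) ran the same way as those of the first. The first has the same kind of design as the PAP3 probe set GmaAffx.90134.1.S1_s_at and may also take up close copies. A further SFERH-3 probe set, GmaAffx.78882.1.A1_at, did not pass the filter and is not described.

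The other ferritin genes on the array, SFERH-2 and SFERH-4, were found by symbol in a list added after the annotation had been read. None of their 5 tested probe sets was called against 0 h at any time, with 2 at an unadjusted p under 0.05 at 12 h and 2 at 24 h. SFERH-4 (Gma.1586.1.S1_at) read 7.43 and 7.92 at 0 h, 8.00 and 7.83 at 6 h, 7.88 and 8.34 at 12 h, then 6.96 and 7.13 at 24 h. It was thus lowest at 24 h, where SFERH-3 was highest, and fell by 1.06 from 12 to 24 h (limma adjusted p = 0.0266), a call kept with any 1 of the 14 arrays left out. From 6 to 12 h 2 of the 4 SFERH-2 probe sets were called lower, by 1.52 and 1.98, where 18.6% of all probe sets were lower and 15.3% higher. Both calls were lost without 12 h replicate 1 or either 6 h array (limma adjusted p from 0.179 to 0.484). The difference between the ferritin genes was not tested, and the 12 h arrays disagreed on SFERH-2 (4.32 and 6.23 on Gma.2505.2.S1_at).

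**Figure D3:**
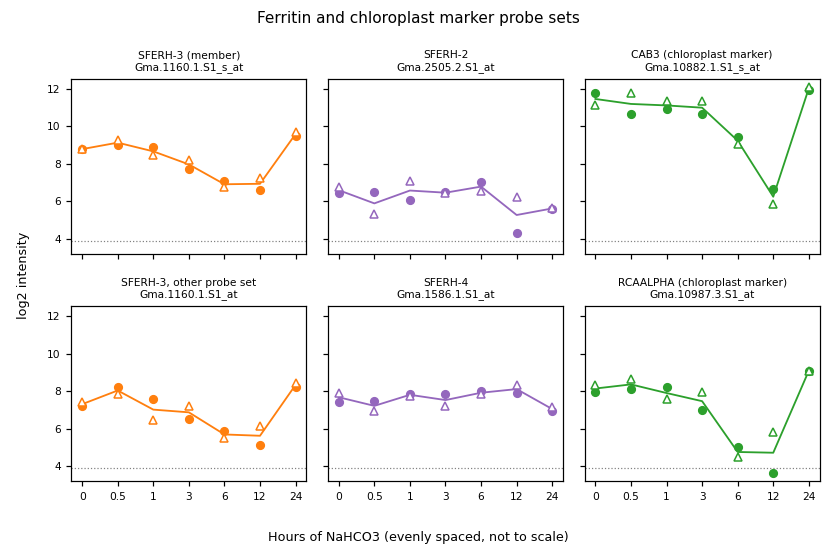
log2 intensity by hours of NaHCO3 of SFERH-3 (left column, both probe sets that passed the filter), SFERH-2 and SFERH-4 (middle) and the chloroplast markers CAB3 and RCAALPHA (right), on each array (replicate 1 filled circles, replicate 2 open triangles, line through the means, dotted line the background of 3.91). SFERH-3 and both markers are low at 6 and 12 h and back up at 24 h, and SFERH-4 is lowest at 24 h.

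Some probe sets of photosynthesis genes moved at the same times as ferritin-3. Of 13 tested probe sets of leaf and chloroplast markers (of 16), limma called 8 lower at 6 h, 8 lower at 12 h and 3 higher at 24 h, where 12.1% and 16.4% of all probe sets were lower and 6.07% higher. The lower calls at 6 and 12 h all fell on probe sets of CAB3, RCA14, RCAALPHA and RCABETA. Those of PSAD changed by -0.1, 0.21 and 0.16 at 12 h and were not called. Neither were RCA11 (0.48) and a further CAB3 probe set, GmaAffx.759.1.S1_at (-0.18). The higher calls at 24 h fell on PSAD Gma.10852.4.S1_a_at (1.25), RCA14 Gma.10987.2.S1_at (1.25) and RCA11 (0.71). That PSAD probe set and RCA11 had not been called lower at 6 or 12 h. No probe set of CAB3 or RCAALPHA was called at 24 h against 0 h. The intensities of the 13 were also summed, so that the strongest probe sets weigh most. At 0 h the strongest 3 were of CAB3, with means of 11.46, 10.33 and 10.3 (log2). The sum was 12.78 to 13.12 (log2) at 0 h, 11.13 to 11.38 at 6 h, 10.44 to 11.00 at 12 h and 13.51 to 13.67 at 24 h. CAB3, a light-harvesting chlorophyll-binding protein (Gma.10882.1.S1_s_at), read 11.79 and 11.14 at 0 h, 6.65 and 5.85 at 12 h, then 11.97 and 12.10 at 24 h. Their part in the ferritin result was not tested. In pooled root tissue, fewer cells of a type and less RNA per cell cannot be told apart.

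Both probe sets with a ferric reductase-like domain were high at 3 and 6 h and low at 12 and 24 h. GmaAffx.71361.1.S1_at, the one also described as respiratory burst oxidase homolog B, read 8.68 and 9.00 at 0 h, 9.13 and 8.88 at 0.5 h, 8.90 and 8.90 at 1 h, 9.94 and 10.00 at 3 h, 9.73 and 9.40 at 6 h, 8.02 and 8.14 at 12 h, then 7.31 and 7.46 at 24 h (log2). Gma.18084.1.S1_at read 9.32 and 9.76 at 0 h, 9.52 and 9.32 at 0.5 h, 9.71 and 9.48 at 1 h, 10.19 and 10.26 at 3 h, 10.18 and 9.80 at 6 h, 8.44 and 8.87 at 12 h, then 8.24 and 8.46 at 24 h. On both, the arrays of 3 and 6 h lay above the 0 h arrays and those of 12 and 24 h below them.

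The first changed by 1.13 at 3 h, -0.76 at 12 h and -1.46 at 24 h (SE 0.17 each), so that its 24 h level was 2.74-fold below that of 0 h. The second changed by 0.68, -0.89 and -1.19 (SE 0.22 each). Neither is a known iron uptake reductase of the FRO family by its description.

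**Figure D4:**
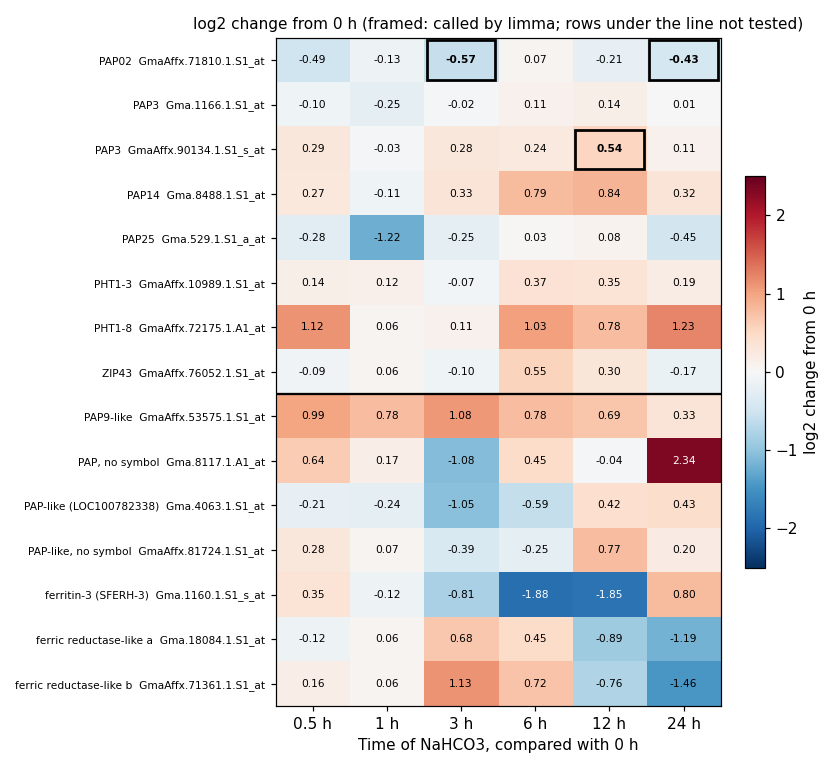
log2 change from 0 h of the 15 members that passed the filter, by time of NaHCO3 (red higher, blue lower). Frames mark the 3 calls by limma, all among the 8 members found by symbol above the line. The 7 members found by description, under the line, were not tested and hold the widest changes, from -1.88 (ferritin-3 at 6 h) to 2.34 (Gma.8117.1.A1_at at 24 h).

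Other genes of phosphate supply were taken from a list of symbols for phosphate signalling and membrane lipids. Of its 15 tested probe sets (of 16), 5 were called at some time against 0 h, with 6 higher and 1 lower calls in 90 comparisons. The higher calls were 1 at 0.5 h, 2 at 12 h and 3 at 24 h, where 2.26%, 7.95% and 6.07% of all probe sets were higher. The lower call came at 3 h, where 12.0% of all were lower, and at 24 h 0 of the 15 were lower against 19.6% of all. With so few probe sets nothing particular to the list is read from these counts. The median log2 change of the list was 0.33 at 24 h, where that of all probe sets was -0.13. PHR24, with the symbol of the PHR family that holds the main regulators of phosphate starvation genes, read 6.88 and 7.39 at 0 h against 7.74 and 8.19 at 12 h. The rise was 0.83 (SE 0.24, limma adjusted p = 0.0511). It lost the call without 0 h replicate 1 (limma adjusted p = 0.283) or 12 h replicate 2 (0.218). PHR13 (Gma.9628.1.S1_at) was called higher at 12 and 24 h, by 0.45 at each (SE 0.17, limma adjusted p = 0.115 and 0.109). How its calls held with arrays left out is not reported here.

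PHR35 read 5.39 and 4.77 at 0 h against 4.41 and 4.33 at 3 h. The fall was 0.71 (SE 0.24, limma adjusted p = 0.109). That call was lost without 0 h replicate 1 (limma adjusted p = 0.43) and without 3 h replicate 1 or 2 (0.251 and 0.337). DGD2, an enzyme of galactolipid synthesis that in Arabidopsis replaces phospholipids under phosphate shortage, changed by 0.62 at 0.5 h (GmaAffx.91388.1.S1_s_at, SE 0.19, limma adjusted p = 0.149). That value passed the limit barely and was lost without any 1 of the 4 arrays compared (limma adjusted p from 0.252 to 0.407) or any 1 array of 1, 3 or 6 h (0.162 to 0.208). The other DGD2 probe sets were not called at 0.5 h, with changes of 0.18 and 0.73 (limma adjusted p = 0.686 and 0.215). At 24 h 2 of the 3 DGD2 probe sets were higher, by 0.48 and 0.53 (limma adjusted p = 0.127 and 0.0932), whereas GmaAffx.91388.1.S1_at averaged 5.38 at both 0 and 24 h (log2, limma adjusted p = 0.999). The change of 0.48 lost its call without any 1 array of 0, 1, 3, 6 or 24 h (0.152 to 0.459), and that of 0.53 without either 0 h array or 24 h replicate 2 (0.217 to 0.417).

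SPX3, whose family senses phosphate status, read 7.11 and 8.69 at 0 h, then 9.03 and 9.26 at 24 h. Its change of 1.24 at 24 h (SE 0.53) was not called (limma adjusted p = 0.157), and the 0 h arrays differed from each other by more. The vegetative storage protein VSPA, a plant acid phosphatase outside the purple family, had 1 of 8 probe sets above the filter, which was not called against 0 h.

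On the iron side, the list of chelators and regulators held 1 gene, FRD3a, whose Arabidopsis relative exports citrate for iron transport to the shoot. Its probe set Gma.17072.1.S1_at read 9.20 and 9.20 at 0 h, 9.20 and 9.76 at 0.5 h, 8.45 and 9.34 at 1 h, 8.55 and 8.27 at 3 h, 7.88 and 8.30 at 6 h, 9.27 and 8.41 at 12 h, then 9.87 and 9.50 at 24 h. Both arrays of 3 and 6 h lay below the 0 h arrays and both of 24 h above. FRD3a fell by 1.11 at 6 h (SE 0.35, 2.16-fold, limma adjusted p = 0.0772). The call was lost without 0 h replicate 1 or 2 (limma adjusted p = 0.238 and 0.218) or 6 h replicate 1 or 2 (0.331 and 0.161). From 12 to 24 h it rose by 0.84 (limma adjusted p = 0.127), which lost its call without 12 h replicate 2 or any 1 array of 0, 3 or 24 h (0.152 to 0.503). Its difference from ferritin-3 was not tested.

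The list of symbols for other metal genes had 5 tested probe sets, of which 2 carry CCS52, a cell cycle switch protein that was matched by its first letters only. The metal genes proper were HMA8, a metal-transporting ATPase, MT2 and CCS, a copper chaperone. Of the 5, 1 was called against 0 h, higher at 6 h, where 8.67% of all probe sets were. MT2, a metallothionein that binds metals (Gma.704.2.S1_a_at), read 6.40 and 6.44 at 0 h against 6.86 and 7.07 at 6 h. The rise was 0.55 (SE 0.22, limma adjusted p = 0.149). It just passed the limit and was lost without any 1 of those 4 arrays (limma adjusted p from 0.27 to 0.491) and without any 1 array of 1, 3 or 24 h (0.153 to 0.187).

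The list of proton pumps and organic acid export matched only malate dehydrogenase and AHAS3, and held no proton pump by name. Of its 4 probe sets 3 measured MDH-1 and did not run alike. Gma.16636.1.S1_at was higher at 12 and 24 h, by 0.45 and 0.50 (limma adjusted p = 0.138 and 0.097), the first lost without any 1 array of any time but 0.5 h (0.156 to 0.34) and the second without any 1 of the 0 h and 24 h arrays (0.217 to 0.282). Gma.16636.1.S1_s_at changed by 0.35 and 0.27 at those times and was not called (limma adjusted p = 0.297 and 0.431). Gma.1268.1.S1_at changed by -0.24 at 24 h, where both arrays lay below both 0 h arrays (limma adjusted p = 0.491), and fell by 0.53 from 12 to 24 h (limma adjusted p = 0.104), lost without 12 h replicate 1 or 24 h replicate 2 (0.434 and 0.398). AHAS3, an enzyme of branched-chain amino acid synthesis, fell by 0.40 at 12 h (limma adjusted p = 0.0976). It was not called under centring (limma adjusted p = 0.2), under quantile normalisation (0.302), without 0 h replicate 1 (0.382) or without 12 h replicate 1 or 2 (0.157 and 0.222).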

How the data were processed

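The authors deposited linear intensity values of 14 Affymetrix arrays, made with dChip from perfect-match probes after invariant-set normalization. Here log2 was taken of intensities of at least 1. Soybean probe sets were tested when their mean log2 exceeded 3.91, the 95th percentile of the 23350 pathogen probe sets, and their median SD/mean over time points was above 0 and under 0.5.

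limma 3.58.1 (R 4.3.3) fitted 7 time groups over all 14 arrays at once (7 residual and 3.24 prior degrees of freedom). P-values were adjusted over all 28567 probe sets by Benjamini-Hochberg. The limits (p under 0.05, adjusted p under 0.15) follow the study's methods. The median SE of a change was 0.236. On simulated data at 12 h, 51 of 100 changes of log2 size 1 and 94 of 100 of size 2 were called. The other 28367 probe sets were simulated without change, whereas 2271 were called higher and 4673 lower in the data at 12 h. The adjusted limit depends on how many probe sets change, so these rates are not those of the real comparisons. The number of arrays limits the precision.

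The members and the gene lists were chosen with earlier results of these data known. Symbols came from the platform annotation. In each role group the called members with the largest changes and the member with the highest mean were named. Tables and figures were made in Python 3.11.15 with pandas 2.3.3 and matplotlib 3.10.9. Alternatives were other normalizations (quantile, median centring), a floor of 16, no filter, a replicate block, the 4 arrays compared alone, the methods' t-test and leaving out each array. Genome positions and sequences were not used here.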

Additional observations from a re-analysis of the deposited data

How the results depend on the processing

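None of the 26 named changes reversed under the alternatives run: of 572 recomputed values 467 kept their side of the limits (untested ones moved by less than the replicate SD), 81 lost a call, 15 gained one and 9 of untested members moved by more than the replicate SD. The counts of members found by symbol, 0 to 1 at each time, moved in several. The fall of 1 member at 3 h went to 0 with quantile normalization, median centring or the methods' t-test, and centring gave 1 higher member there. At 6 h, 0 higher members became 1 with quantile normalization or a floor of 16, and 2 with centring or the 4 arrays alone. At 12 h, 1 higher member became 2 with centring or no filter, and 0 with the 4 arrays alone or the methods' t-test. At 24 h, 0 higher members became 1 with centring or the 4 arrays alone, and 1 lower member became 0 with quantile normalization, centring, no filter, the 4 arrays alone or the methods' t-test. Leaving out 1 array gave 0 to 1 lower at 3 h, 0 to 1 higher at 6 h, 0 to 2 higher at 12 h, and 0 to 1 in both directions at 24 h. Without both arrays of low hybridisation controls, a choice made after seeing the data, 1 member was higher at 0.5 h and 1 at 24 h. That setting gave 2 higher members at 6 h, where it gave 0 at 12 h. Replicate differences correlated between time points from -0.349 to 0.295, over 0.1 in 6 of 21 pairs of time points. Replicate numbers thus showed no uniform pairing of the arrays, though pairing or batches at some times cannot be settled from this. The replicate block changed no count of members (1 lower at 3 h, 1 higher at 12 h, 1 lower at 24 h) and lost the call of MT2 at 6 h (limma adjusted p = 0.175). The cause of these moves was not tested. With 2 arrays a time point, changes near 1 log2 unit are called in only some cases.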

Other observations

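Tables of the study, which chose genes on these arrays, also describe probe sets near iron and citrate metabolism, whose values are given without a test. A probe set described by heavy metal transport (Gma.16830.1.S1_at, LOC100306444) read 8.27 and 8.47 at 0 h, 9.86 and 9.92 at 3 h, then 6.71 and 6.91 at 24 h (log2), a change of 1.52 at 3 h and -1.56 at 24 h. It was highest at 3 h and lowest at 24 h. The other probe set of that description, GmaAffx.34438.1.S1_s_at, changed by 0.05 and -2.10 at those times.

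Citrate, an iron chelator in the xylem, is made by citrate synthase and used by ATP citrate lyase and aconitate hydratase. The 7 probe sets described as ATP citrate lyase had a median log2 change of 1.51 at 6 h (from 1.06 to 2.00) and -0.52 at 24 h. The 6 described as aconitate hydratase had 0.79 and -0.52, and the 3 described as citrate synthase 0.43 and -0.41. Each of these probe sets had a mean above that of 0 h at 6 h. They came from tables of genes chosen as changed on these same arrays, and several share a gene. Their direction is therefore not compared with that of all probe sets.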
